A study of Mus musculus with 9 samples.

Results

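The 10 genes followed here write, remove or depend on marks of DNA methylation and Polycomb chromatin in mouse acute myeloid leukemia (AML) cells: the DNA methyltransferases Dnmt1, Dnmt3a and Dnmt3b, the 5-methylcytosine dioxygenases Tet1, Tet2 and Tet3, the isocitrate dehydrogenases Idh1 and Idh2, the histone methyltransferase Ezh2 and the Polycomb-linked protein Asxl1. They were chosen by gene symbol, and all 10 matched 1 row each among the 55536 genes measured. RNA sequencing covered 9 libraries in 3 groups of 3: WT c-kit-, WT c-kit+ and libraries labelled IRF7-/- c-kit+, which are called the labelled libraries here.

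All groups came from leukemias started by infecting c-kit+ cells of WT or IRF7-/- donors with the MSCV-MLL-AF9-GFP retrovirus, so that every library carried the MLL-AF9 oncogene and GFP. GFP+ cells were passed to C57BL/6J recipients aged 6 to 8 weeks that were not irradiated, and leukemia cells were sorted from bone marrow at day 18 by surface c-kit, the stem cell factor receptor that marks the more immature leukemia cells. The IRF7-/- donors carried a cassette in place of exons 2 and 3 of Irf7, an interferon regulatory transcription factor, and no c-kit- library of that genotype was analysed here. The labels do not say whether the 3 libraries of a group came from separate mice, so the p-values measure the spread between libraries, which may be technical.

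DNMT1 copies methylation onto the new strand when DNA replicates, while DNMT3A and DNMT3B set methylation at new sites. TET enzymes oxidise 5-methylcytosine as a first step of its removal, and they need 2-oxoglutarate, the product of IDH1 in the cytosol and IDH2 in mitochondria. Mutant IDH enzymes of human AML make 2-hydroxyglutarate instead, which inhibits TET enzymes. EZH2 is the catalytic subunit of PRC2, which methylates lysine 27 of histone H3, and ASXL1 works with BAP1 to remove ubiquitin from histone H2A. DNMT3A, TET2, IDH1, IDH2, EZH2 and ASXL1 are all mutated in subsets of human myeloid disease.

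The labels were checked first. Kit, which encodes c-kit, was 0.52 to 3.03 TPM (a level scaled by transcript length and library total) in WT c-kit-, 50.7 to 58.5 TPM in WT c-kit+ and 70.3 to 85.7 TPM in the labelled libraries, as the sort would give. Irf7 was 22.3 to 32.3, 3.36 to 5.31 and 5.97 to 12.8 TPM in the same order. It was therefore higher in every labelled library than in any WT c-kit+ library, which goes against a knockout label, and each direction drawn from these libraries rests on their label. A level for the whole gene also takes in transcripts of exons outside the replaced part, so it cannot by itself settle the genotype. Mpo and Itgam, markers of myeloid cells, and Hoxa9 and Meis1, targets of MLL fusions, were expressed in all 9 libraries. Of 26 markers of other marrow cells, 24 stayed at or below 6.68 TPM. Cd79b, a B cell gene, stood at 25.8 to 37.1 TPM and Lepr, a stromal gene, at 15.9 to 58.4 TPM. The other B cell markers were at or below 1.11 TPM in every library, and the other stromal and endothelial markers at or below 1.60 TPM.

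On the log2(TPM + 1) scale used for the tests, Idh1 had the largest difference among the 10 genes, and it was lowest in WT c-kit+. Tet1, the scarcest, differed more as a ratio of mean TPM (0.37 from WT c-kit- to the labelled libraries), at levels near the filter on low values. Dnmt1, Dnmt3a and Idh2 were highest in the labelled libraries, above every library of both other groups. Tet2 and Tet3 were highest in WT c-kit-. Asxl1 differed least. The plot of levels by library shows these patterns, which are taken below by the role of each enzyme.

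**Figure D1:**
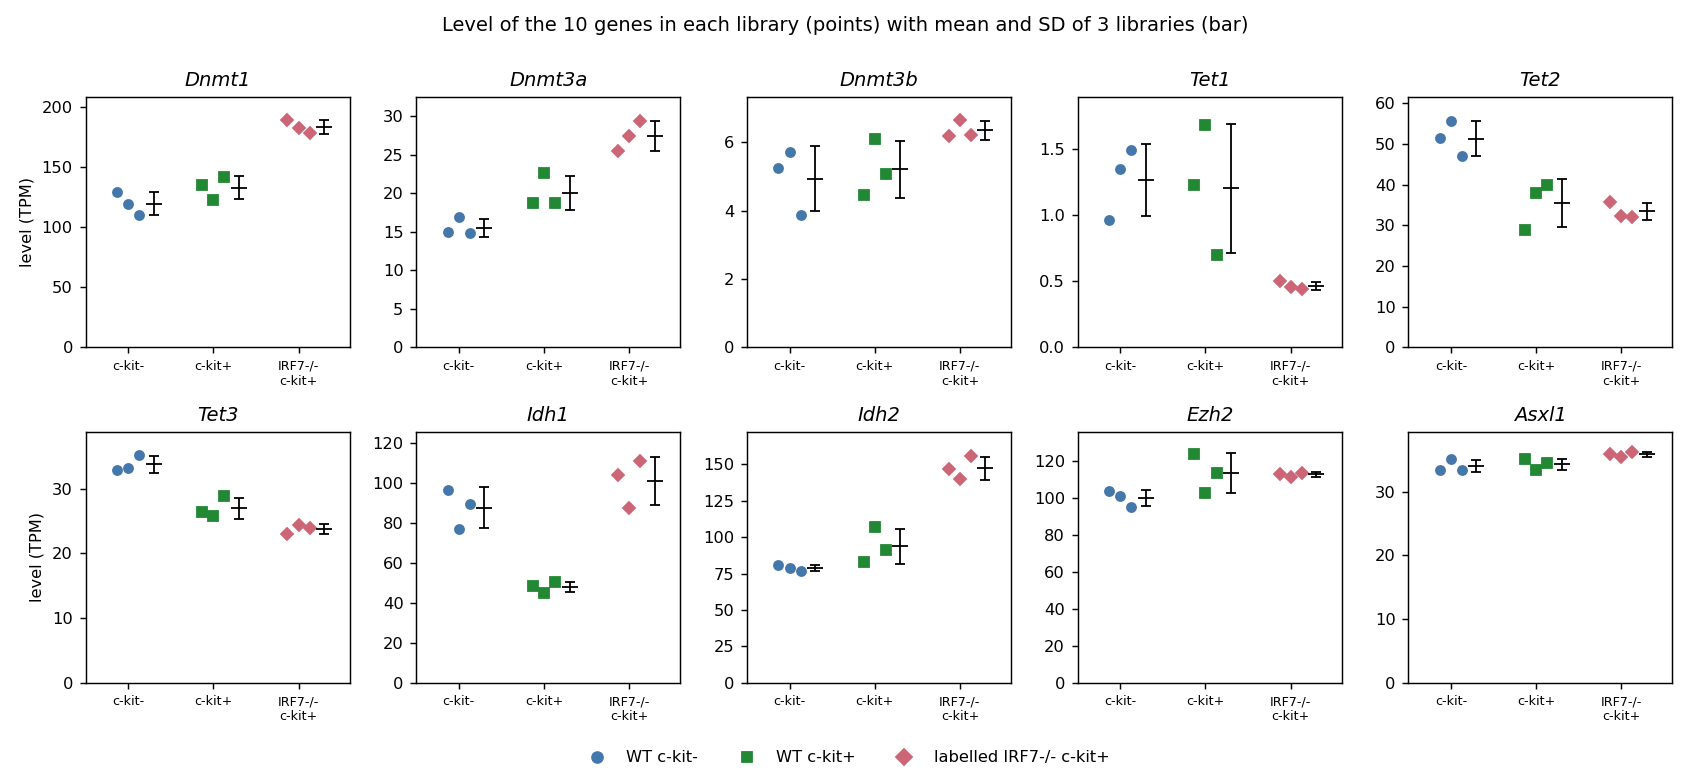
Level of each of the 10 genes in TPM (vertical axes, each from 0) in the 3 libraries of WT c-kit- (blue circles), WT c-kit+ (green squares) and the labelled IRF7-/- c-kit+ group (red diamonds), with the mean and SD of 3 libraries as a black bar beside them. All 3 labelled libraries lie above the other 6 for Dnmt1, Dnmt3a, Dnmt3b, Idh2 and Asxl1 and below them for Tet1 and Tet3, and all 3 WT c-kit+ libraries lie below the other 6 for Idh1.

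Differences were tested with limma on log2(TPM + 1) between each pair of groups, over all genes that reached 1 TPM in 3 or more of the 6 libraries. A gene rose or fell where the Benjamini-Hochberg adjusted p over all genes tested was under 0.05. From WT c-kit- to WT c-kit+, 1 of the 10 genes rose (Dnmt3a) and 3 fell (Tet2, Tet3 and Idh1), where 14.0% of all 13261 genes tested rose and 27.6% fell. From WT c-kit+ to the labelled libraries, 4 of 9 genes tested rose (Dnmt1, Dnmt3a, Idh1 and Idh2) and 0 fell, where 31.9% of 13238 genes rose and 16.1% fell. From WT c-kit- to the labelled libraries, 4 of 9 rose (Dnmt1, Dnmt3a, Idh2 and Ezh2) and 2 fell (Tet2 and Tet3), where 30.7% of 13510 genes rose and 28.7% fell. Tet1 was not tested in the last 2 comparisons because it passed the filter on low values only between the WT groups.

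These counts stand against a background in which much of the transcriptome differed. An absolute log2 fold change of 1 or more with an adjusted p under 0.05 was found for 14.4%, 11.7% and 20.3% of genes in the same order of comparisons, and among the 10 genes only Idh1 reached it, between the c-kit+ groups. The libraries of the groups compared did not overlap for 5 of 10 genes, 7 of 9 and 8 of 9, where the shares over all genes tested were 54.4%, 59.1% and 67.1%. The comparisons share libraries in pairs, so their counts are not independent of each other.

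Over all genes tested, the median log2 fold change was −0.08 from WT c-kit- to WT c-kit+, 0.12 from WT c-kit+ to the labelled libraries and 0.03 from WT c-kit- to the labelled libraries, and the medians of the 10 genes (those tested) were 0.04, 0.25 and 0.20. Since TPM sum to a fixed total, abundant transcripts weigh on all others. The 30 myeloid maturation genes, granule and myeloid surface genes such as Mpo, Elane and S100a8, summed to 84003 to 136298 TPM in WT c-kit+, against 23432 to 51165 TPM in WT c-kit- and 23714 to 29014 TPM in the labelled libraries. They did not move together. Means in WT c-kit-, WT c-kit+ and the labelled libraries were 7329, 39669 and 925 TPM for S100a9. For Elane they were 881, 6030 and 7820 TPM. Of the 30, 12 rose and 5 fell between the WT groups, and 2 rose and 24 fell between the c-kit+ groups. From WT c-kit- to the labelled libraries, 6 rose and 22 fell. The shares over all genes tested were 14.0%, 31.9% and 30.7% for rises, and 27.6%, 16.1% and 28.7% for falls. Of all genes called between the WT groups, 33.7% were higher in WT c-kit+. This share was 53.9% after quantile normalization, 45.6% after median ratio rescaling and 48.3% after the maturation genes were left out and the rest rescaled. Of all genes called between the c-kit+ groups, 66.4% were higher in the labelled libraries, and the same 3 scalings gave 55.4%, 51.4% and 51.1%. Where a scaling changed the call of one of the 10 genes, the value is given with that gene.

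**Figure D2:**
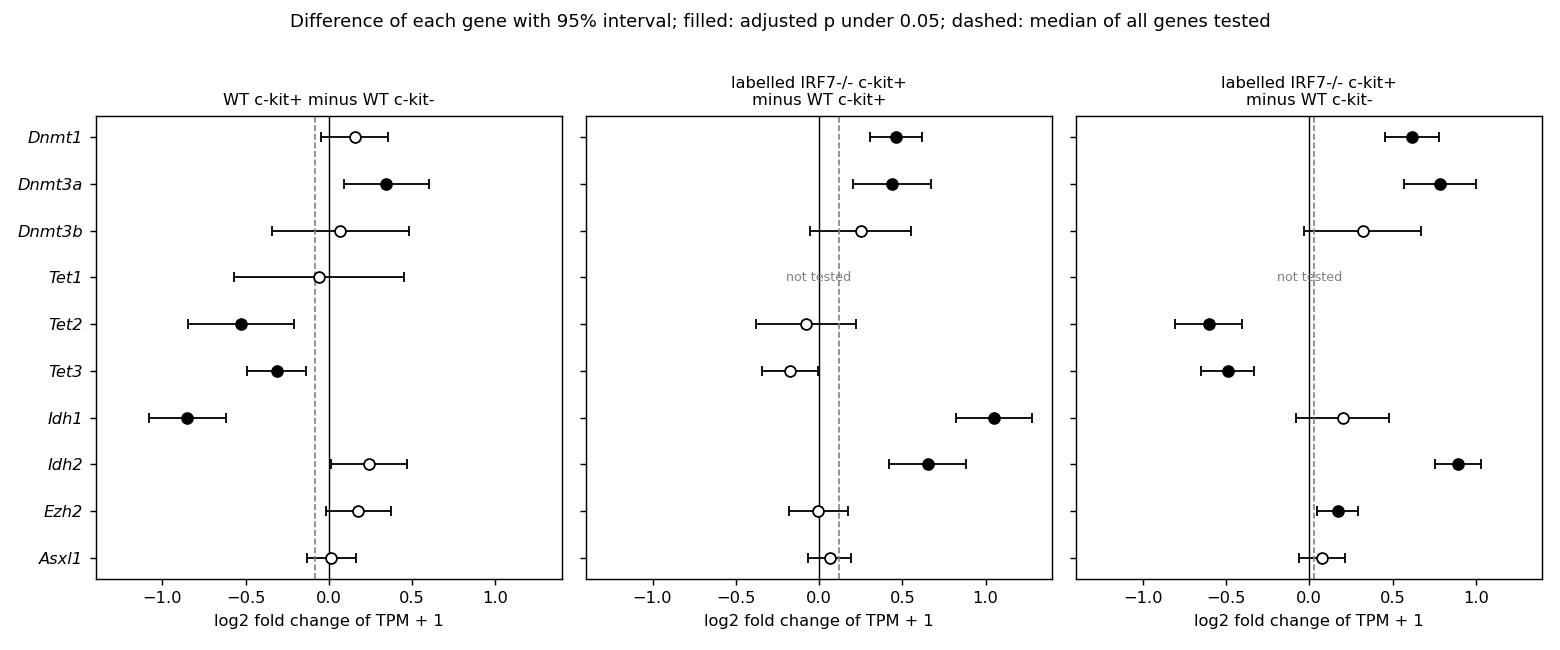
Log2 fold change of TPM + 1 (horizontal axes) of the 10 genes (rows) in the 3 comparisons, with the 95% interval from limma as a bar. Filled points passed an adjusted p of 0.05, and the dashed line is the median of all genes tested. Idh1 stands at −0.85 on the left and 1.05 in the middle, while Asxl1 stays between 0.01 and 0.08 in all 3 panels.

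Dnmt1, the maintenance methyltransferase (ENSMUSG00000004099, chr9:20907209-20959888, minus strand), was the most abundant of the 10 genes and ranked 939 of 13357 genes with a mean of at least 1 TPM. It measured 129, 119 and 110 TPM in WT c-kit- libraries 1, 2 and 3, 135, 122 and 141 TPM in WT c-kit+, with 189, 182 and 178 TPM in the labelled libraries. Every labelled library stood above the other 6, whereas the WT groups overlapped. Dnmt1 rose 1.38-fold from WT c-kit+ to the labelled libraries (log2 fold change of 0.46, SE 0.07, limma adjusted p = 0.00193) and 1.54-fold from WT c-kit- (0.62, SE 0.07, limma adjusted p = 0.000373). It stayed past the threshold in all 14 alternative settings of both comparisons. The difference between the WT groups was 0.16 (95% interval −0.05 to 0.36, limma adjusted p = 0.187). It passed the threshold under the 3 scalings above (log2 fold changes of 0.25 to 0.34).

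Dnmt3a, a de novo methyltransferase (ENSMUSG00000020661, chr12:3806007-3914443, plus strand), was present at lower levels. Its level was 14.9, 16.9 and 14.8 TPM in WT c-kit-, 18.7, 22.6 and 18.8 TPM in WT c-kit+, with 25.5, 27.4 and 29.4 TPM in the labelled libraries. The 3 groups did not overlap and stood in that order. Dnmt3a rose between the c-kit+ groups (log2 fold change of 0.44, SE 0.10, limma adjusted p = 0.0109) and from WT c-kit- to the labelled libraries (0.78, SE 0.09, limma adjusted p = 0.000421), and both calls were kept in all 14 alternatives. Its rise between the WT groups (0.35, SE 0.11, limma adjusted p = 0.0390) was less firm. It was lost without the filter on low values, without WT c-kit- replicate 1 or 3, and without any 1 of the WT c-kit+ libraries, with adjusted p up to 0.103 and log2 fold changes from 0.26 to 0.39.

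Dnmt3b, the other de novo enzyme (ENSMUSG00000027478, chr2:153649450-153687730, plus strand), was scarcer still. It measured 5.24, 5.72 and 3.87 TPM in WT c-kit-, 4.45, 6.11 and 5.09 TPM in WT c-kit+, with 6.18, 6.66 and 6.22 TPM in the labelled libraries. The labelled libraries again lay above the other 6, though the lowest of them (6.18 TPM) was close to the highest of the others (6.11 TPM). Dnmt3b passed no test: the difference was 0.25 between the c-kit+ groups (95% interval −0.05 to 0.55, limma adjusted p = 0.149) and 0.32 from WT c-kit- to the labelled libraries (−0.03 to 0.67, limma adjusted p = 0.104).

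The make-up of the family was read as shares of the summed TPM. The 3 methyltransferases together summed to 140 ± 10.5 TPM (SD, n = 3) in WT c-kit-, 158 ± 7.04 TPM in WT c-kit+ and 217 ± 3.57 TPM in the labelled libraries. Dnmt1 held 85.3%, 84.0% and 84.4% of these sums, Dnmt3a 11.1%, 12.7% and 12.7%, and Dnmt3b 3.52%, 3.31% and 2.93%. The differences between group means were at most 1.58 percentage points, and a test of 3 libraries against 3 (smallest exact permutation p of 0.1) could not have called them. Shares within a library do not depend on scaling between libraries.

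Dnmt1 is transcribed most in cells that replicate DNA, so 24 S phase and mitosis genes such as Mcm2, Pcna and Mki67 were read beside it. They summed to 2258 to 2577 TPM in WT c-kit-, 2664 to 3046 TPM in WT c-kit+ and 3429 to 3567 TPM in the labelled libraries. Of the 24, 9 rose between the WT groups, 13 rose between the c-kit+ groups and 19 rose from WT c-kit- to the labelled libraries. Over all genes tested, 14.0%, 31.9% and 30.7% rose, and 27.6%, 16.1% and 28.7% fell. Of the 24, 0 fell in any of the 3 comparisons, with median log2 fold changes of 0.21, 0.25 and 0.55. Dnmt1 amounted to 4.89% ± 0.10, 4.60% ± 0.17 and 5.23% ± 0.14 of that sum in the 3 groups (SD, n = 3), and its 3 labelled libraries lay above the other 6 by this measure too. The 24 genes did not move alike. Between the c-kit+ groups their log2 fold changes ran from −0.16 to 0.77, where that of Dnmt1 was 0.46. Mcm3 went from a mean of 177 to 302 TPM and Pcna from 419 to 422 TPM. The share of Dnmt1 therefore depends on which genes are summed. The part of cell cycle in the Dnmt1 difference was not tested. In bulk samples, fewer cells of a type and less RNA per cell cannot be told apart.

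Promoter sequences were read from RefSeq on GRCm38.p6 as 250 bases before to 50 bases after each annotated start, 15 starts for the 10 genes. E2F factors, which drive S phase genes, bind sites such as TTTGGCGC, TTTCCCGC, TTTCGCGC and TTTGCCGC. At least 1 of these 4 strings was found, on either strand, in 2 of the 15 promoters and in 2.26% of all 32851 promoters of the same length. The matches were in Ezh2 and in the third start of Dnmt1, and every match is shown, in capitals. The numbering counts from the start, with −1 as the last base before it, and each line is 30 bases on the gene's strand.
Ezh2, chr6:47595009-47595038, TTTGGCGC at 4 to 11: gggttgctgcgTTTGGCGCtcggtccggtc
Dnmt1, chr9:20952574-20952603, TTTGGCGC at 34 to 41: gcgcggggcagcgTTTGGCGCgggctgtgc
Dnmt1, chr9:20952824-20952853, TTTCGCGC on the other strand at −219 to −212: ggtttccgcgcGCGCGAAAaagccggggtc
TTTGGCGC alone was found in 0.514% of all promoters and TTTCGCGC in 0.323%. The interferon-stimulated response element core GAAANNGAAA, which IRF factors bind, was found in 0 of the 15 promoters and in 3.44% of all. Each of the 4 E2F strings holds a CG, and 14 of the 15 promoters held more CG than the median promoter. The shares over all promoters therefore do not come from windows of like base content. A match is only a string of letters in this window, and its absence says nothing of the factor.

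Tet2 and Tet3 had an order of group means opposite to that of Dnmt1 and Dnmt3a. Tet2, the family member most often mutated in human AML (ENSMUSG00000040943, chr3:133463679-133545139, minus strand), measured 51.4, 55.7 and 46.9 TPM in WT c-kit-, 28.9, 37.9 and 39.9 TPM in WT c-kit+, with 35.7, 32.3 and 32.2 TPM in the labelled libraries. The WT c-kit- libraries were all above the other 6, and the c-kit+ groups overlapped. Tet2 fell from WT c-kit- to WT c-kit+ (log2 fold change of −0.53, SE 0.13, limma adjusted p = 0.0189) and from WT c-kit- to the labelled libraries (−0.60, SE 0.08, limma adjusted p = 0.000977). The second call was kept in all 14 alternatives. The first was lost under quantile normalization (−0.36, limma adjusted p = 0.0623), without WT c-kit- replicate 1 (−0.52, limma adjusted p = 0.0537) and without WT c-kit- replicate 2 (−0.47, limma adjusted p = 0.0639). Between the c-kit+ groups the difference was −0.08 (95% interval −0.38 to 0.22, limma adjusted p = 0.643).

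Tet3 (ENSMUSG00000034832, chr6:83362373-83459084, minus strand) measured 32.8, 33.3 and 35.3 TPM in WT c-kit-, 26.4, 25.8 and 28.8 TPM in WT c-kit+, with 23.0, 24.4 and 24.0 TPM in the labelled libraries. The groups did not overlap. Tet3 fell between the WT groups (log2 fold change of −0.31, SE 0.07, limma adjusted p = 0.0138) and from WT c-kit- to the labelled libraries (−0.49, SE 0.07, limma adjusted p = 0.000834). The step between the c-kit+ groups was −0.18 (SE 0.07, limma adjusted p = 0.0803). These 2 smaller steps depended on the scaling. Under quantile normalization, median ratio rescaling and rescaling without maturation genes, the first was no longer called (−0.17, −0.22 and −0.20) while the last was (−0.25, −0.29 and −0.30). The first was also lost without WT c-kit+ replicate 1 (limma adjusted p = 0.0505).

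Tet1 (ENSMUSG00000047146, chr10:62804570-62908996, minus strand) was close to the filter on low values, at 0.96, 1.35 and 1.49 TPM in WT c-kit-, 1.23, 1.68 and 0.70 TPM in WT c-kit+, with 0.50, 0.46 and 0.44 TPM in the labelled libraries. All 3 labelled libraries lay below the other 6. With no filter, the log2 fold change was −0.62 (SE 0.12, limma adjusted p = 0.0125) from WT c-kit- to the labelled libraries and −0.56 (SE 0.18, limma adjusted p = 0.0768) from WT c-kit+, values that the pseudocount of 1 shrinks at such levels. Between the WT groups it was −0.06 (95% interval −0.57 to 0.45, limma adjusted p = 0.848).

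Summed over the family, Tet transcripts amounted to 86.4 ± 3.47 TPM (SD, n = 3) in WT c-kit-, 63.8 ± 6.62 TPM in WT c-kit+ and 57.6 ± 1.41 TPM in the labelled libraries. Tet2 held 59.4%, 55.5% and 57.9% of the sum, Tet3 39.2%, 42.6% and 41.3%, and Tet1 1.47%, 1.92% and 0.809%. Thus Tet2 was the leading TET transcript in every group. The ratio of the Dnmt sum to the Tet sum, a measure chosen after the values were seen, was 1.75, 1.57 and 1.53 in the WT c-kit- libraries, 2.80, 2.31 and 2.38 in WT c-kit+ and 3.73, 3.79 and 3.78 in the labelled libraries. The groups did not overlap in this ratio, which cancels any scaling of a whole library.

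**Figure D3:**
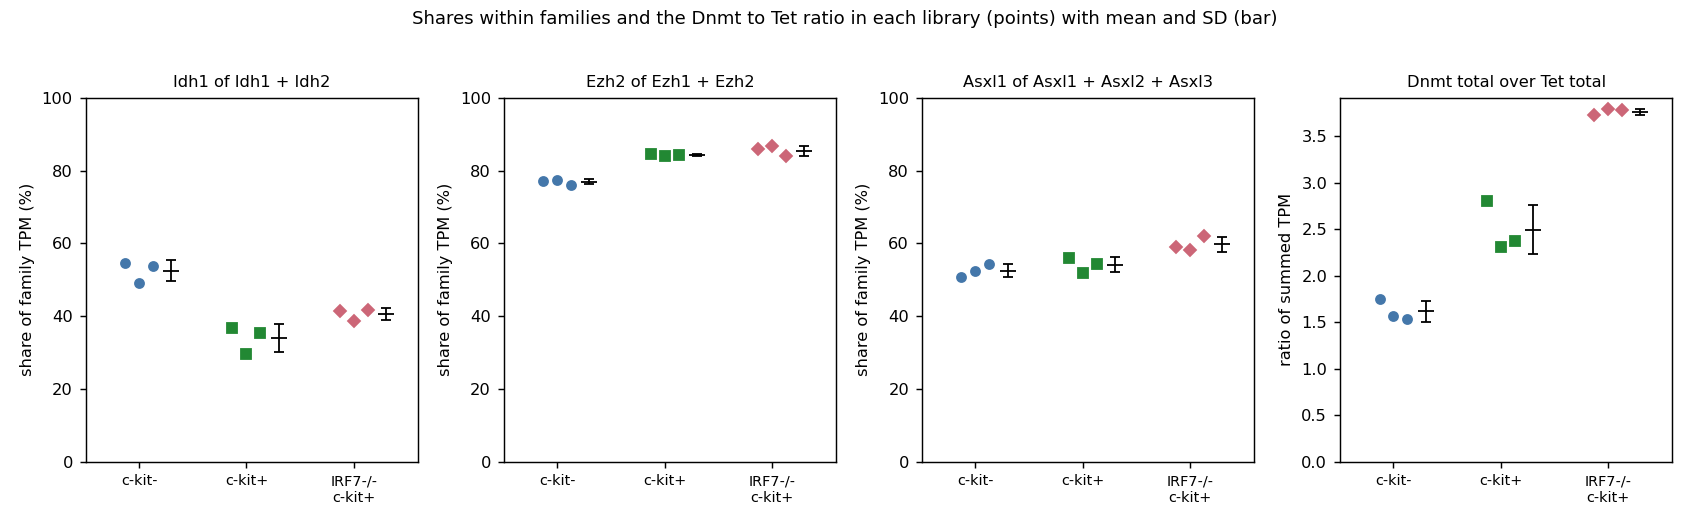
Share of the family TPM held by Idh1, Ezh2 and Asxl1 (first 3 panels, percent) and the ratio of summed Dnmt to summed Tet TPM (last panel) in each library (points, colours and shapes as in the plot of levels), with the mean and SD of 3 libraries as a black bar. The Idh1 share is 52.5% in WT c-kit-, 34.0% in WT c-kit+ and 40.5% in the labelled libraries, and the Dnmt to Tet ratio is 1.62, 2.50 and 3.77.

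Idh1, the cytosolic NADP-dependent enzyme (ENSMUSG00000025950, chr1:65158616-65186500, minus strand), measured 96.7, 76.7 and 89.5 TPM in WT c-kit-, 48.6, 45.0 and 50.2 TPM in WT c-kit+, with 104, 87.7 and 111 TPM in the labelled libraries. The WT c-kit+ libraries lay below the other 6, and the remaining groups overlapped. Idh1 fell between the WT groups (log2 fold change of −0.85, SE 0.10, limma adjusted p = 0.000636) and was 2.10-fold higher in the labelled libraries than in WT c-kit+ (1.05, SE 0.10, limma adjusted p = 0.000372). Both calls were kept in all 14 alternatives, with log2 fold changes of −0.94 to −0.67 and of 0.92 to 1.15. Relative to the median of all genes the changes were −0.77 and 0.93. Between WT c-kit- and the labelled libraries the difference was 0.20 (95% interval −0.08 to 0.48, limma adjusted p = 0.180).

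Idh2, the mitochondrial enzyme (ENSMUSG00000030541, chr7:80094846-80115392, minus strand), had another pattern. It measured 80.7, 79.0 and 77.0 TPM in WT c-kit-, 83.3, 107 and 91.2 TPM in WT c-kit+, with 147, 140 and 156 TPM in the labelled libraries. No groups overlapped, and the labelled libraries stood well above the rest. Idh2 rose 1.57-fold between the c-kit+ groups (log2 fold change of 0.65, SE 0.10, limma adjusted p = 0.00227) and 1.87-fold from WT c-kit- to the labelled libraries (0.89, SE 0.06, limma adjusted p = 3.7e-05), in all 14 alternatives of each. The WT groups differed by 0.24 (95% interval 0.01 to 0.47, limma adjusted p = 0.0865), which passed the threshold under the 3 scalings (0.34 to 0.43) and without WT c-kit+ replicate 1 (0.32, limma adjusted p = 0.0384).

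The balance of the 2 isocitrate dehydrogenases was not the same in the 3 groups. Idh1 held 54.5%, 49.3% and 53.8% of their sum in WT c-kit-, 36.9%, 29.6% and 35.5% in WT c-kit+ and 41.5%, 38.6% and 41.6% in the labelled libraries. No groups overlapped, and WT c-kit+ had the lowest Idh1 share. Each difference had an exact two-sided permutation p of 0.1, the smallest that 3 libraries against 3 allow, and an adjusted p of 0.244 over the 39 shares and pairs of groups tested. The sum of Idh1 and Idh2 was 167 ± 10.8, 142 ± 10.1 and 248 ± 19.7 TPM (SD, n = 3) in the 3 groups.

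The 100 bases before the annotated start of Idh1 (first of 2), Idh2 and Tet2 are shown because these genes supply or act in the oxidation of methylated CG and their CG content near the start differs. CG dinucleotides are in capitals.
Idh1, chr1:65186480-65186579, minus strand: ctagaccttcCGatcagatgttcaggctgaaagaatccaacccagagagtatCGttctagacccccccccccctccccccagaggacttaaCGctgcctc
Idh2, chr7:80115351-80115450, minus strand: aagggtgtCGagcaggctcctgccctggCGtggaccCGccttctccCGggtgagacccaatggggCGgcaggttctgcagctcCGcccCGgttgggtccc
Tet2, chr3:133544391-133544490, minus strand: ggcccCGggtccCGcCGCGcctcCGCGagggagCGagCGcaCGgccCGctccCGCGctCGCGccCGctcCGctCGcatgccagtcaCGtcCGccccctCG
These stretches hold 3, 7 and 20 CG dinucleotides. Over the whole window of 300 bases the counts were 23, 20 and 57, so that Idh1 and Idh2 changed order. In these windows 14 of the 15 promoters of the 10 genes held more CG than the median promoter, which held 7, and the range was from 2 at the first start of Dnmt1 to 57 at Tet2. No methylation was measured in these samples.

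Ezh2 (ENSMUSG00000029687, chr6:47530139-47595341, minus strand) measured 104, 101 and 95.3 TPM in WT c-kit-, 124, 102 and 114 TPM in WT c-kit+, with 113, 111 and 114 TPM in the labelled libraries. The c-kit+ groups overlapped, with a difference of 0.00 on the log2 scale (95% interval −0.18 to 0.17, limma adjusted p = 0.965). Ezh2 rose slightly from WT c-kit- to the labelled libraries (log2 fold change of 0.17, SE 0.05, limma adjusted p = 0.0267), but this call was lost in 7 of 14 alternatives, among them with all 9 libraries in 1 fit and without any 1 of WT c-kit- replicates 2 and 3 and the labelled libraries 1, 2 and 3 (limma adjusted p of 0.0505 to 0.0865). Between the WT groups the difference was 0.18 (95% interval −0.02 to 0.37, limma adjusted p = 0.132), and it passed the threshold under the 3 scalings (0.27 to 0.36) and without WT c-kit+ replicate 2 (0.25). Unlike Dnmt1, Ezh2 made up a smaller part of the sum of S phase and mitosis genes in the labelled libraries, at 3.22% ± 0.10 (SD, n = 3), than in WT c-kit- (4.11% ± 0.10) or WT c-kit+ (3.92% ± 0.13), with no overlap of the labelled libraries with either. This share too depends on which genes are summed.

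Ezh1, the second catalytic subunit of PRC2 and the form typical of resting cells, measured 30.8, 29.4 and 29.8 TPM in WT c-kit- and 22.4, 19.4 and 21.4 TPM in WT c-kit+. It fell between these groups (log2 fold change of −0.49, SE 0.08, limma adjusted p = 0.00274) and had a mean of 19.1 TPM in the labelled libraries. The Ezh2 share of the pair was 76.9% ± 0.68 in WT c-kit-, 84.3% ± 0.33 in WT c-kit+ and 85.5% ± 1.36 in the labelled libraries (SD, n = 3). WT c-kit- stood apart from both c-kit+ groups (exact permutation p = 0.1, the smallest possible, adjusted p = 0.244), and the c-kit+ groups overlapped.

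Asxl1 (ENSMUSG00000042548, chr2:153345829-153404007, plus strand) had the narrowest range of the 10. It measured 33.4, 35.1 and 33.5 TPM in WT c-kit-, 35.1, 33.4 and 34.5 TPM in WT c-kit+, with 35.9, 35.5 and 36.3 TPM in the labelled libraries. The lowest labelled library (35.5 TPM) was above the highest of the other 6 (35.1 TPM), but no comparison passed the test. The difference between the c-kit+ groups was 0.06 (95% interval −0.07 to 0.19, limma adjusted p = 0.380), and it turned negative under the 3 scalings, to between −0.07 and −0.03. Asxl2, its paralog, was 30.7, 29.1 and 24.2 TPM in the 3 groups and fell from WT c-kit+ to the labelled libraries (−0.26, SE 0.08, limma adjusted p = 0.0381), a call lost in 7 of 14 alternatives, among them without the filter on low values, without any 1 of the WT c-kit+ libraries and without the labelled library 1 or 3. Asxl3 was listed at 0 in every library. The Asxl1 share of the family was 52.6%, 54.1% and 59.7%, and the labelled libraries did not overlap the others (exact permutation p = 0.1, adjusted p = 0.244).

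The partners of the 10 genes were taken from 6 lists of 105 genes, of which 99 were tested. In them 21 rose and 25 fell between the WT groups, 28 rose and 19 fell between the c-kit+ groups, and 31 rose and 30 fell from WT c-kit- to the labelled libraries. Over all genes tested, 14.0% rose and 27.6% fell, 31.9% rose and 16.1% fell, and 30.7% rose and 28.7% fell, in the same order. The counts of each list below stand against these shares. The medians of the 99 genes were −0.05, 0.12 and 0.00, close to those of all genes. The plot of the lists gives each gene.

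**Figure D4:**
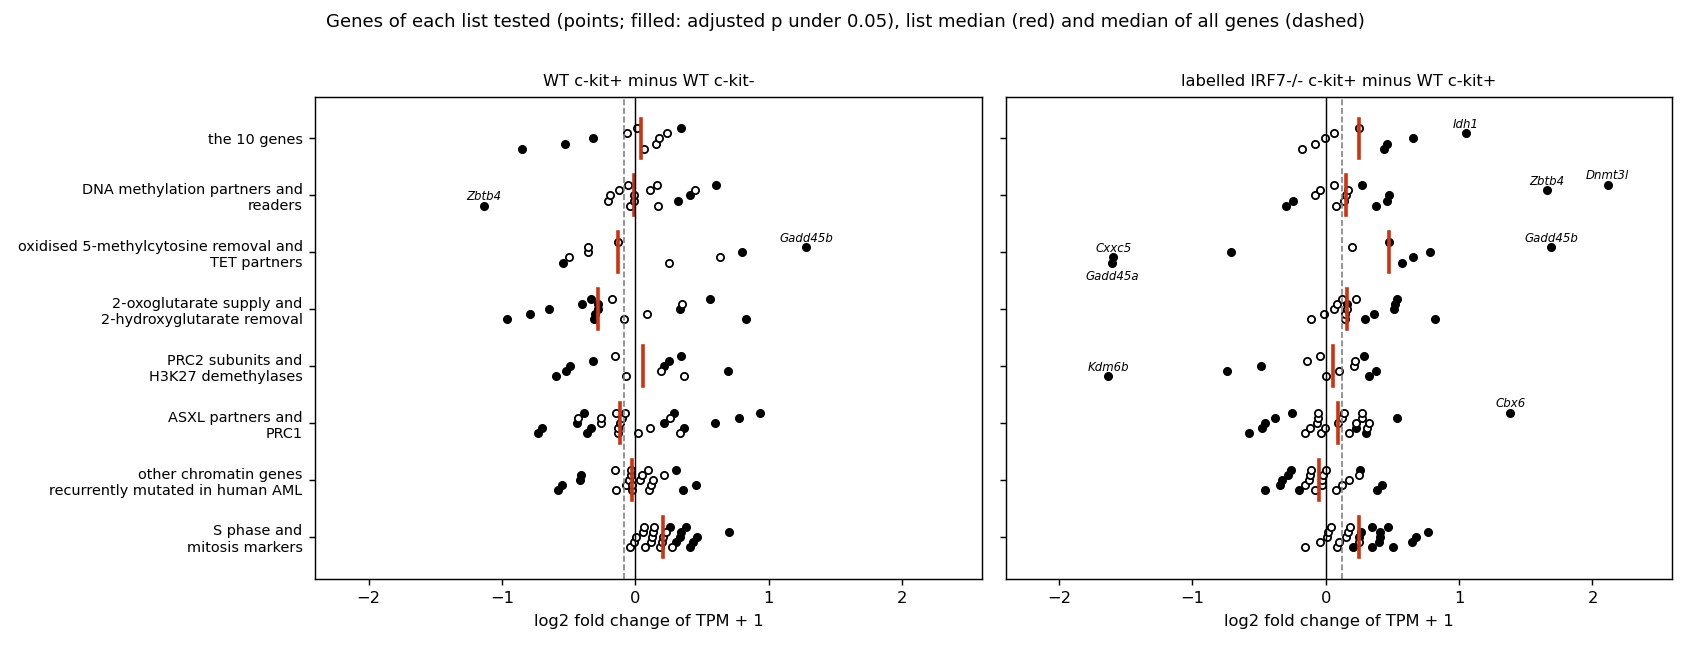
Log2 fold change of TPM + 1 (horizontal axes) of each gene tested in the 10 genes, 6 partner lists and the S phase and mitosis list (rows), from WT c-kit- to WT c-kit+ (left) and from WT c-kit+ to the labelled libraries (right). Filled points passed an adjusted p of 0.05, red lines are list medians, the dashed line is the median of all genes, and names mark genes past both thresholds. Dnmt3l (2.12), Gadd45b (1.69), Zbtb4 (1.66) and Cbx6 (1.38) rose furthest on the right, and Kdm6b (−1.63), Gadd45a (−1.60) and Cxxc5 (−1.59) fell furthest.

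Among 15 partners and readers of DNA methylation tested, 3 rose and 1 fell between the WT groups, 6 rose and 2 fell between the c-kit+ groups, and 8 rose and 4 fell from WT c-kit- to the labelled libraries. Uhrf1, which brings DNMT1 to hemimethylated DNA, measured 84.2, 92.7 and 83.0 TPM, then 119, 110 and 116 TPM, then 164, 156 and 156 TPM in the 3 groups. It rose in all 3 comparisons, with log2 fold changes of 0.41, 0.46 and 0.87 (limma adjusted p = 0.00323, 0.000942 and 5.0e-05), and its ratio to Dnmt1 was 0.729, 0.868 and 0.866. Dnmt3l, a partner of DNMT3A with no catalytic activity that is best known from germ cells, measured 6.41, 6.44 and 6.11 TPM in WT c-kit-, 10.1, 7.67 and 13.3 TPM in WT c-kit+, with 42.8, 43.3 and 56.8 TPM in the labelled libraries. It was thus above Dnmt3a itself in the labelled libraries and below it in both WT groups. The rise between the c-kit+ groups was 2.12 (SE 0.20, limma adjusted p = 0.000412). Aire lies across Dnmt3l on the opposite strand, and no source used here states if reads were assigned by strand. Zbtb4, a reader of methylated DNA, fell between the WT groups from 4.65 to 1.58 TPM (−1.13, limma adjusted p = 0.000877) and was 7.12 TPM in the labelled libraries.

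Of 9 genes tested for removal of oxidised 5-methylcytosine and TET partners, 5 rose and 3 fell between the c-kit+ groups, and 2 rose and 1 fell between the WT groups. Tdg, the glycosylase that excises oxidised 5-methylcytosine, rose from 38.2 to 53.3 TPM between the c-kit+ groups (log2 fold change of 0.47, SE 0.07, limma adjusted p = 0.00252). The stress-response genes of the Gadd45 family, which have been linked to DNA demethylation, did not move together. Gadd45b measured 12.4, 9.63 and 8.10 TPM, then 25.9, 26.2 and 24.3 TPM, then 92.3, 71.0 and 91.6 TPM in the 3 groups, with no overlap. Gadd45a fell from 48.7 to 15.4 TPM between the c-kit+ groups (−1.60, SE 0.19, limma adjusted p = 0.000910). Gadd45g fell from a mean of 10.1 TPM in WT c-kit- to 3.99 TPM in the labelled libraries (−1.06, limma adjusted p = 0.0203), a call lost without the filter on low values or without the labelled library 2 or 3. Its WT c-kit- libraries spread widely, at 6.01, 8.65 and 15.7 TPM. Replicate 3, the highest, also had the highest sum of maturation genes in that group (51165 TPM, against 25818 and 23432 TPM). Cxxc5, a CXXC protein related to the DNA-binding part of TET enzymes, was low throughout, at 2.78 to 4.44 TPM in WT c-kit+ and 0.27 to 0.67 TPM in the labelled libraries (−1.59, limma adjusted p = 0.00106).

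Of 16 genes tested in the list of 2-oxoglutarate supply and 2-hydroxyglutarate removal, 3 rose and 9 fell between the WT groups. Between the c-kit+ groups 7 rose and 0 fell, and the medians were −0.28 and 0.16. Over all genes tested, 14.0% rose and 27.6% fell, and then 31.9% rose and 16.1% fell. The list also holds Ogdh, Dlst and Dld, whose complex consumes 2-oxoglutarate, and Sdha, Sdhb and Fh1, which act downstream of it. Its summed level is therefore not a measure of supply. It was lowest in WT c-kit+, as that of Idh1, at 1355 ± 24.1, 1049 ± 28.2 and 1216 ± 12.5 TPM (SD, n = 3) in the 3 groups. D2hgdh, which oxidises the 2-hydroxyglutarate made by mutant IDH, was 14.8, 15.9 and 14.6 TPM and passed no test. Got1, an aspartate aminotransferase that uses 2-oxoglutarate, measured 10.5 to 11.5 TPM in WT c-kit- and rose to 29.1 to 32.9 TPM in the labelled libraries (1.39, limma adjusted p = 3.0e-05). Bcat1, a branched-chain aminotransferase that consumes 2-oxoglutarate, was at or below 0.07 TPM in every library and was not tested.

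Of 12 PRC2 subunits and H3K27 demethylases, 4 rose and 4 fell between the WT groups, and 3 rose and 3 fell between the c-kit+ groups. The core subunits did not move as 1 unit. Eed fell between the WT groups from 88.2 to 70.6 TPM (log2 fold change of −0.31, limma adjusted p = 0.0140), a call lost under quantile normalization and without maturation genes, while Suz12 rose from 52.6 to 62.7 TPM (0.25, limma adjusted p = 0.0325), a call lost in 7 of 14 alternatives, among them those without WT c-kit- replicate 1 or 3 or any 1 of the WT c-kit+ libraries. Between the c-kit+ groups Eed differed by 0.00 and Suz12 by 0.10 (limma adjusted p = 0.982 and 0.158). Kdm6b, which removes the methyl marks that EZH2 sets, measured 31.8, 34.8 and 33.4 TPM in WT c-kit+, with 10.1, 9.42 and 10.8 TPM in the labelled libraries (−1.63, SE 0.08, limma adjusted p = 4.2e-05). It spread from 15.7 to 38.2 TPM among the WT c-kit- libraries. Phf1, an accessory subunit of PRC2, fell from 27.8 TPM in WT c-kit- to 10.3 TPM in the labelled libraries (−1.34, limma adjusted p = 0.000303).

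Of 25 ASXL partners and PRC1 genes tested, 6 rose and 6 fell between the WT groups, and 4 rose and 5 fell between the c-kit+ groups. Bap1, the catalytic partner of ASXL1, was 40.4, 41.0 and 37.7 TPM in the 3 groups and passed no test as reported, but the difference between the c-kit+ groups (−0.12, limma adjusted p = 0.143) passed it under the 3 scalings (−0.25 to −0.21). Cbx6, a chromobox subunit of PRC1, rose from 3.04 to 9.64 TPM between the c-kit+ groups (1.38, SE 0.16, limma adjusted p = 0.000862).

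Levels most like those of a gene were looked up for the 3 genes of the 10 with the widest range of group means of log2(TPM + 1), Idh1, Idh2 and Dnmt3a (a choice that depends on this scale), as Pearson's r of log2(TPM + 1) over the 9 libraries among 10284 genes with a mean of at least 5 TPM. The libraries fall into 3 groups, so r is high for any gene with the same order and spacing of group means. F10, coagulation factor X, was nearest to Idh1 (r = 0.996), followed by 4930455G09Rik (0.993) and Timm10b (0.988). Frmd4a (0.996), 2310039H08Rik (0.993) and Rps23 (0.992) were nearest to Idh2. Rps27a (0.993), Nudt19 (0.993) and Abhd11 (0.992) were nearest to Dnmt3a. F10 measured 216, 97.8 and 255 TPM in the 3 groups, which is the order of Idh1.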

How the data were processed

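RNA libraries (TruSeq RNA v2, per the labels) of the 9 samples were deposited by the authors as 1 table of TPM for 55536 genes, so alignment, quantification and scaling to a fixed total were the authors' work. The aligner, build and use of strand are not given in the sources used here, and the paper's methods call the assay a microarray. The header names no unit, and TPM was inferred from library sums of 987468 to 992231. TPM keep no read numbers, so depth is unknown and precision rests on 3 libraries a group. All identifiers matched GENCODE M21 (GRCm38), the source of coordinates. The column of WT c-kit+ replicate 3 carries an extra digit in its name.

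The 10 genes and the lists were chosen with earlier results of these data known. limma (version 3.58.1, R 4.3.3, lmFit and eBayes with trend) was run on log2(TPM + 1) for each pair of groups on its 6 libraries, for genes that reached 1 TPM in 3 or more of them, with Benjamini-Hochberg adjustment over all genes tested. Shares were compared with exact two-sided permutation tests. On simulated data, a change of 0.5 on the log2 scale was called in 33%, 36% and 39% of changed genes in the 3 comparisons as ordered in the report, and 1.5 in 87%, 93% and 88%. Only 200 genes were changed in each simulation, a far smaller share than was called in the data. The adjustment was therefore stricter there, and these rates do not give the power of the tests reported. Alternatives were a pseudocount of 0.1, no filter on low values or one at 5 TPM, quantile normalization, median ratio rescaling, rescaling without the 30 myeloid maturation genes, all 9 libraries in 1 fit, the replicate number as a block, and each library left out. Named partners were the up to 4 largest rises and falls past both thresholds in each comparison, and 10 direct partners whatever their values. Of these, 1 is not reported here. Overlapping or antisense genes are annotated at Dnmt1, Dnmt3a, Dnmt3b, all Tet genes, Idh2, Ezh2 and Asxl1. Reads of genes on opposite strands cannot be told apart without strand. The overlaps on the same strand, at Dnmt1, Tet1, Tet3 and Idh2, would not be separated by strand either. Python 3.11.15 with pandas 2.3.3, scipy 1.17.1 and matplotlib 3.10.9 was used.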

Additional observations from a re-analysis of the deposited data

How the results depend on the processing

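Of 391 alternative values of the 10 genes, 343 kept direction and side of the threshold, 20 lost the call, 15 gained it and 13 changed sign, and of 600 values of the named partners 16 changed sign. TPM without depth and 3 libraries a group limit what small differences can show, and the scaling of TPM changed calls of Tet2, Tet3, Dnmt1, Idh2, Ezh2 and Eed between the WT groups and of Tet3 and Bap1 between the c-kit+ groups, among others.

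Between the WT groups, Tet1 turned to 0.00014 under quantile normalization and 0.0053 without maturation genes, Tdg to 0.035 under quantile normalization, and Asxl2 to 0.073, 0.022 and 0.043 under quantile normalization, median ratio rescaling and without maturation genes. Between the c-kit+ groups these 3 scalings gave Asxl1 −0.035, −0.056 and −0.065, Eed −0.10, −0.12 and −0.13, and Suz12 −0.011, −0.019 and −0.029. From WT c-kit- to the labelled libraries, D2hgdh turned to 0.055 under quantile normalization.

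With 1 library left out, values spanned zero for Dnmt3b (−0.067 to 0.16), Tet1 (−0.21 to 0.12), Asxl1 (−0.0012 to 0.037) and Bap1 (−0.0032 to 0.061) between the WT groups, for Tet2 (−0.22 to 0.011), Ezh2 (−0.075 to 0.061) and Eed (−0.062 to 0.041) between the c-kit+ groups, and for D2hgdh (−0.075 to 0.065) from WT c-kit- to the labelled libraries. The number of the 10 genes called between the WT groups was then 2 to 4, with 2 without WT c-kit- replicate 1. With a filter of 5 TPM, 1015 genes passed both thresholds between the c-kit+ groups in place of 1548, where 10231 genes were tested in place of 13238.

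With the replicate number as a block, 4, 4 and 6 of the 10 genes were called in the 3 comparisons, as without it, but Idh1 was gained from WT c-kit- to the labelled libraries (limma adjusted p = 0.0468) and Ezh2 lost (limma adjusted p = 0.0546). Deviations of same-numbered libraries from their group mean correlated at −0.071 to 0.24, and 1 of 9 pairs exceeded 0.1. For libraries with different numbers the range was −0.18 to 0.14, and 1 of 18 pairs exceeded 0.1. The labels do not say what a number stands for, and a shared mouse, sort or batch cannot be told from these values.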

Other observations

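The 22 other chromatin genes listed as recurrently mutated in human AML, among them cohesin subunits, histone acetyltransferases, KMT2 enzymes and splicing factors, were called in both directions. Between the WT groups 3 rose and 4 fell, between the c-kit+ groups 3 rose and 6 fell, and from WT c-kit- to the labelled libraries 4 rose and 6 fell. Over all genes tested, 14.0%, 31.9% and 30.7% rose, and 27.6%, 16.1% and 28.7% fell. The log2 fold changes of the 22 genes lay between −0.58 and 0.46, between −0.46 and 0.42, and between −0.89 and 0.51. None of the 22 passed both thresholds, where 14.4%, 11.7% and 20.3% of all genes did. Their summed level was 1851 ± 59.3, 1859 ± 37.7 and 1837 ± 21.6 TPM in the 3 groups (SD, n = 3). This sum adds members moving both ways and weighs the abundant ones most.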
